A study of Mus musculus with 7 samples.

Results

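The comparison is between 2 RNA-Seq libraries of mouse cells reprogrammed to pluripotency, 5C-Oct4GFP+ (naive) and mES-Oct4GFP+. It was chosen by the library titles alone. It runs over the 29267 genes of the deposited tables, of which 10726 had a TPM (a transcript level set to the same sum in each library) of at least 5 in either library and were compared. The question is how cells taken through 5C medium and then kept in naive medium differ in RNA from cells sorted straight out of the standard medium.

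Both samples came from OG2 mouse embryonic fibroblasts (MEFs), which carry an egfp reporter under an Oct4 promoter, after infection with retroviruses for Oct4, Sox2, Klf4 and c-Myc. The mES-Oct4GFP+ cells were reprogrammed in mES medium, with serum, leukemia inhibitory factor (LIF) and vitamin C, and the fluorescent fraction was sorted on day 15, at passage 0 in the labels. The converted naive cells were sorted as Oct4GFP+ from 5C medium, a serum-free medium with bFGF, LIF and vitamin C, and then cultured in naive medium, which is N2B27 with LIF, vitamin C, the GSK3 inhibitor CHIR99021 and the MEK inhibitor PD0325901, with 20 passages in the labels. The series has 7 libraries, 1 for each group, and the other 5 are given for their levels. They are the Oct4GFP- cells of mES and of 5C medium, the sorted 5C-Oct4GFP+ cells, the same cells moved to primed medium, and a primed line of R1 embryonic stem cells (R1 ESCs-primed). In the labels the 2 primed libraries have 20 passages and the sorted ones have 0. With no replicates there is no test, and the spread between cultures is unknown. Medium, passages, starting medium and fresh sorting all differ between the 2 samples and cannot be told apart, nor can a difference in the make-up of the cells from one in RNA per cell.

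Naive pluripotency is the state of the preimplantation epiblast. LIF and the inhibition of the ERK pathway hold it, with WNT signalling relieved by the inhibition of GSK3, and it rests on factors such as Esrrb, Klf2, Tfcp2l1 and Nanog. Primed cells resemble the epiblast after implantation, depend on FGF and activin, and express Otx2 and Fgf5. Naive cells carry little DNA methylation and transcribe a number of germline genes that methylation silences in other cells.

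The state markers of both libraries were those of naive cells. Pou5f1 (Oct4) was at 1321 TPM in mES-Oct4GFP+ and 1698 in the converted naive cells, and Nanog at 697 and 735 TPM. Otx2 was at 0.41 and 1.15 TPM and Fgf5 at 0.12 and 0.09 TPM, against 26.5 to 214 and 11.7 to 175 TPM in the other 5 libraries. The early ERK response gene Egr1 was at 0.32 and 0.50 TPM, against 64.9 to 568 TPM elsewhere. The WNT target Axin2 was at 98.3 and 105 TPM, against 3.99 to 17.6 TPM elsewhere. Low Egr1 and high Axin2 therefore stood in both libraries, although the study lists neither inhibitor for mES medium, and what lies behind the levels in the library labelled mES-Oct4GFP+ was not tested. Of 28 fibroblast markers 6 reached the TPM minimum in either library, and the 28 together summed to 1209 TPM in mES-Oct4GFP+ and 1384 in the converted cells, within the 1155 to 5834 TPM of the other 5. Col1a1 and Col1a2, chains of the main fibroblast collagen, were at 4.05 and 1.82 TPM in mES-Oct4GFP+ and 1.63 and 1.53 TPM in the converted cells, against 160 and 108 TPM in mES-Oct4GFP-.

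Among the genes named by size of difference, the largest in the lower direction was Stra8. It is the retinoic acid responsive gene that germ cells need to enter meiosis. The 250 bases before the RefSeq start sites of the 4 germline genes that were at least 2-fold lower in the converted cells are given here because retinoic acid receptors and the MYC and MGA family of factors have known core sites that can be read in them. Capitals mark AGGTCA, a half-site of retinoic acid receptors and not a whole site, and CACGTG, the E-box, each searched on both strands. All are from RefSeq on GRCm38.p6, written 5′ to 3′ on the strand of the gene, which is + for each: Stra8 at chr6:34920698-34920947, Stag3 at chr5:138280259-138280508, Brdt at chr5:107330944-107331193 and Sohlh2 at chr3:55181794-55182043.
Stra8: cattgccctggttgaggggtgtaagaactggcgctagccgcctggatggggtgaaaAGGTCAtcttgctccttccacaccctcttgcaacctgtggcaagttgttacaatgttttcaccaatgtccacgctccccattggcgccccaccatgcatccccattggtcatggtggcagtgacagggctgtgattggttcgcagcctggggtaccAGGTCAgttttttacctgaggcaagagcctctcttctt
Stag3: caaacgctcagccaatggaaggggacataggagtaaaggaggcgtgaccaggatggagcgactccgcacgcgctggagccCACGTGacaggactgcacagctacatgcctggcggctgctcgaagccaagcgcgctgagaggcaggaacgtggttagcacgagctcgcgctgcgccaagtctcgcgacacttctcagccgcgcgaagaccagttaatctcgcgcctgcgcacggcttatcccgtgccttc
Brdt: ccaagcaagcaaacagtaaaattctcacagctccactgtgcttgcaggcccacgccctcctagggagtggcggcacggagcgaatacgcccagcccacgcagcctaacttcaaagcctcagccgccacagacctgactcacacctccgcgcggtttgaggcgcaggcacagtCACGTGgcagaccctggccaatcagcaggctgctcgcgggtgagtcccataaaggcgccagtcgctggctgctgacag
Sohlh2: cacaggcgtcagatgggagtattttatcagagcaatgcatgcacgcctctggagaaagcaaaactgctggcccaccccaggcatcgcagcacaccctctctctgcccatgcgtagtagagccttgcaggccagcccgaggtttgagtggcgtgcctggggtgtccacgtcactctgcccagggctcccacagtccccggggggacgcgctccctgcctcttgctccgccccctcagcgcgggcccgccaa
The Stra8 window held AGGTCA at 2 places, 194 and 38 bases before the start, as separate half-sites and not an adjacent pair. The Stag3 and Brdt windows held 1 CACGTG each, 170 and 78 bases before the start, and the Sohlh2 window held neither motif. Over the 250 bases before the start in all 32851 promoter windows, AGGTCA was present in 14.0% and CACGTG in 6.02%. Of the 17 germline genes compared, 16 had a window, with 19 windows in all, and 3 of these genes held AGGTCA and 7 held CACGTG. The shares are of windows and these counts are of genes. These are matches of letters and do not show binding.

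Across the 10726 genes the levels in the 2 libraries lay close together. Pearson's r of log2(TPM + 1) was 0.962 and Spearman's rho 0.966 over these genes, which are not independent replicates. A difference of at least 2-fold on that scale, which understates the change of low genes, was seen for 604 genes (5.63%). Of these, 158 were higher (1.47%) and 446 lower (4.16%) in the converted naive cells. The other 10122 genes (94.4%) were within 2-fold. For comparison, the pair of primed libraries, from 5C medium and from R1 ESCs, shares neither library and was counted by the same rule. It had 534 of 11017 genes at least 2-fold apart (4.85%), with 164 higher (1.49%) and 370 lower (3.36%) in the cells from 5C medium. Both primed libraries have 20 passages in the labels and differ in the origin of the cells, whereas the main pair also differs in passages and medium.

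**Figure D1:**
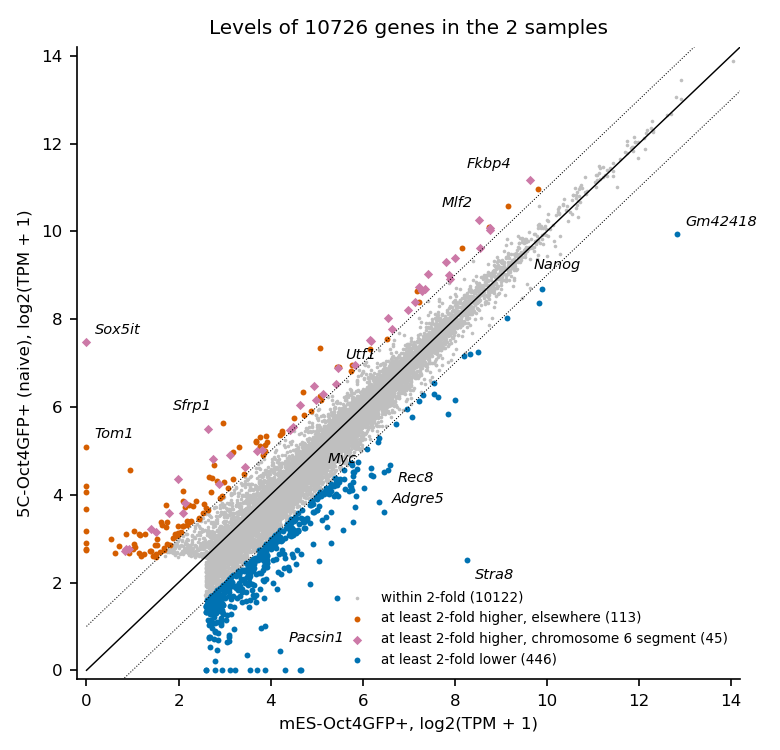
Level of each compared gene as log2(TPM + 1), in mES-Oct4GFP+ on the x axis and in 5C-Oct4GFP+ (naive) on the y axis, 1 library each. The solid line marks equal levels and the dotted lines a 2-fold difference on this scale. Most of the 10726 points (10122) lie between the dotted lines, Stra8 stands far below them, and 45 of the 158 higher genes (diamonds) come from 1 segment of chromosome 6.

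The excess of lower genes varied with the scaling and lay mostly among genes of low level. The median difference was -0.13, with quartiles of -0.38 and 0.09. With the genes cut into 5 equal bins by mean level, the lowest bin, from 1.46 to 10.2 TPM, had a median of -0.34 with 287 genes lower and 80 higher. The highest bin, from 92.2 TPM, had a median of 0.01 with 14 lower and 27 higher. Rescaling the libraries by the median ratio of their genes moved the median of all genes to 0.06 and the counts to 263 higher and 275 lower, so that the higher genes made up 48.9% of the differing genes in place of 26.2%. TMM scaling of the counts gave 209 and 270 (43.6% higher) with a median of 0.05, and FPKM gave 122 and 206 (37.2% higher). Small differences therefore take either sign with the scaling, and genes are called higher or lower only at 2-fold or more. Of the genes given as lower, Cdx1, Egln3, Lamb1, Msc, Rb1, Sohlh2, Txnip and Vegfa were within 2-fold after median-ratio scaling, and Bnip3, Rhox6, Rhox9 and Tap1 were within 2-fold with TMM scaling. Of the genes given as higher, Bmp4 was within 2-fold with FPKM.

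Expected counts summed to 6108252 in mES-Oct4GFP+ and 8233480 in the converted naive cells, at which a single read of a median gene stood for 0.137 and 0.0976 TPM. Ratios of single genes are given with exact Clopper-Pearson 95% intervals from these counts, which cover the sampling of reads only. By that interval, 81 genes (0.755%) were wholly above a 2-fold ratio and 196 (1.83%) wholly below it. Where a library had no read, the bound given is the end of that interval nearer to 1. The single entry Gm42418, which overlaps ribosomal RNA, took 7226 TPM in mES-Oct4GFP+ and 976 TPM in the converted cells, with 2593 to 8521 TPM in the other 5.

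The factors of the naive state were alike in the 2 libraries. None of the 18 naive factors compared was 2-fold higher or lower, and their median difference was -0.11 beside -0.13 for all genes. Esrrb, an orphan nuclear receptor, was at 246 TPM in mES-Oct4GFP+ and 207 TPM in the converted cells, a ratio of 0.839 (interval 0.800 to 0.881). Tfcp2l1, a target of LIF signalling, was at 194 and 153 TPM, a ratio of 0.790 (0.763 to 0.819). Klf2 was at 338 and 288 TPM, Klf4 at 139 and 152 TPM, and Zfp42 (Rex1), a standard naive marker, at 337 and 355 TPM. The 2 libraries stood together for Esrrb, Zfp42 and Klf2 with 5C-Oct4GFP+ (230, 219 and 254 TPM) and apart from both primed libraries (1.00 and 3.28, 0 and 6.02, 4.84 and 9.09 TPM).

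Prdm14, which represses FGF signalling and DNA methyltransferases, was at 51.2 and 34.9 TPM. Nr0b1 (Dax1) was at 93.7 and 57.2 TPM, a ratio of 0.611 (0.539 to 0.693). Dppa3 (Stella), which protects the maternal genome from demethylation, was at 494 TPM in mES-Oct4GFP+ and 388 TPM in the converted cells. It was at 71.2 TPM in 5C-Oct4GFP+ and at most 4.32 TPM in the other 4 libraries. Tbx3 was at 74.6 and 94.4 TPM. All of these stayed within 2-fold.

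**Figure D2:**
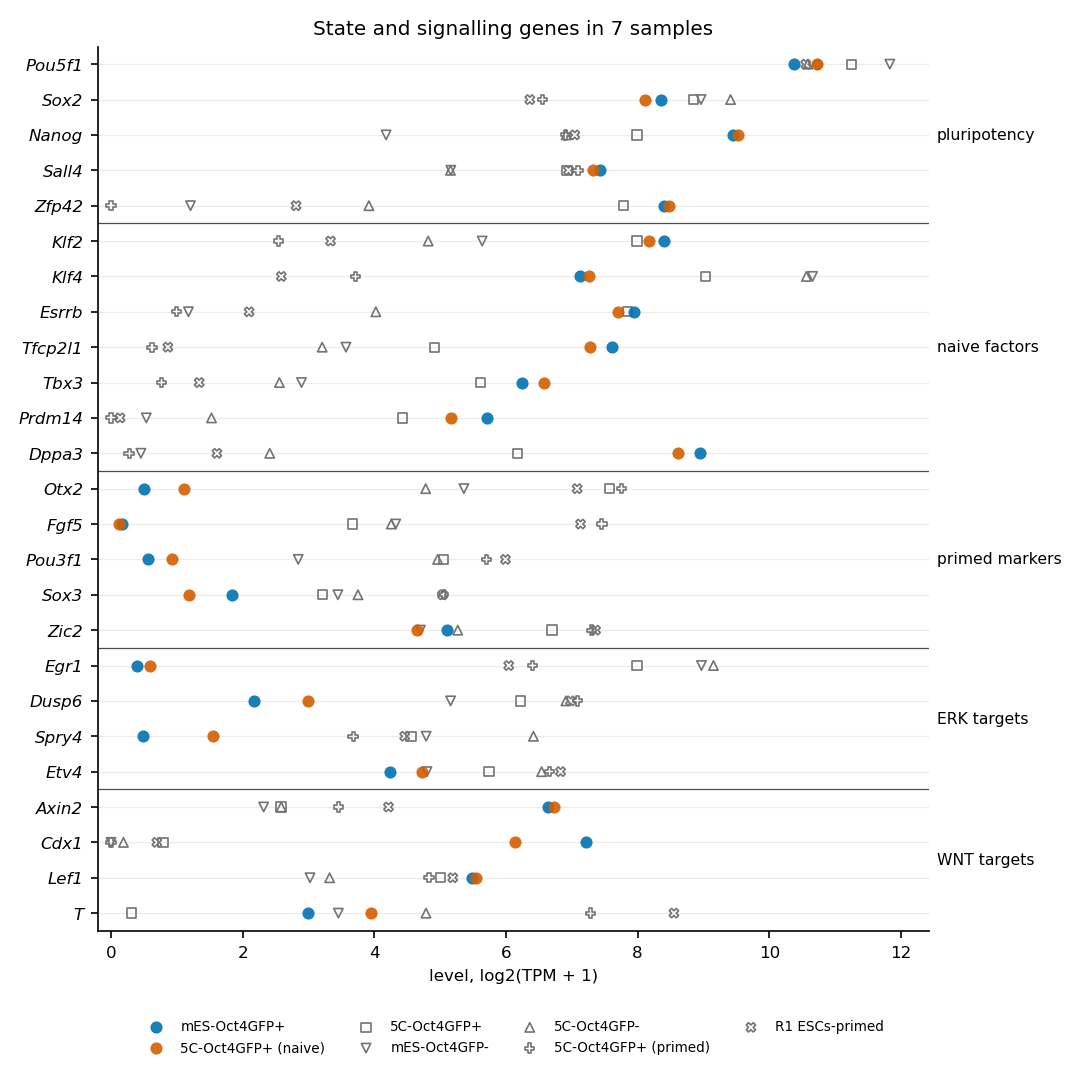
Level of state and signalling genes as log2(TPM + 1) on the x axis, 1 row per gene, with 1 point for each of the 7 libraries. Filled points are mES-Oct4GFP+ and 5C-Oct4GFP+ (naive), and open points are the other 5. The filled points lie close together in nearly every row, low for Otx2, Fgf5 and Egr1 and high for Axin2 and Cdx1.

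Utf1 stood apart within the core pluripotency list, where 1 gene of 12 was higher and 1 lower (8.33% each, beside 1.47% and 4.16% of all genes). Utf1, a chromatin factor of undifferentiated cells, was at 42.2 TPM in mES-Oct4GFP+, 119 in the converted cells, 1034 in 5C-Oct4GFP+, 528 and 481 in the primed libraries, and 19.2 and 99.9 in the Oct4GFP- cells of mES and 5C medium. The ratio was 2.82 (2.37 to 3.38), and both naive-state libraries lay below the primed ones. Dppa2, which primes developmental promoters and helps to switch on genes of the early embryo, was the lower member. It was at 133 TPM in mES-Oct4GFP+ and 53.9 TPM in the converted cells, 2.47-fold lower (2.20 to 2.77), and its level in the converted cells was near the 63.2 TPM of 5C-Oct4GFP+.

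The formative and primed list had a median difference of 0.35 over 12 genes. Utf1 was its 1 higher gene (8.33%, beside 1.47% of all genes), and none was lower. Pou3f1 (Oct6) was at 0.48 and 0.90 TPM and Sox3 at 2.56 and 1.28 TPM, both under the minimum. Zic2, a factor of the primed state, was at 33.4 TPM in mES-Oct4GFP+ and 24.1 TPM in the converted cells, against 157 and 163 TPM in the primed libraries.

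Of 16 ERK targets compared, none was higher and 2 lower (12.5%, beside 4.16% of all genes), Myc and Phlda1, with a median of -0.07. Dusp6, a phosphatase that ERK induces and that switches ERK off, was at 3.53 and 7.0 TPM, a ratio of 1.98 (1.31 to 3.07), and at 34.7 to 135 TPM elsewhere. Spry4, another feedback inhibitor, was at 0.40 and 1.92 TPM, under the minimum in both, with a ratio of 4.80 (2.03 to 13.9) on 6 and 41 reads. Phlda1 was at 6.10 TPM in mES-Oct4GFP+ and 1.89 TPM in the converted cells, 3.23-fold lower (1.75 to 5.99).

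Myc, one of the 4 reprogramming factors and a driver of growth, was at 74.0 TPM in mES-Oct4GFP+ and 20.6 TPM in the converted cells. It was 3.59-fold lower (2.95 to 4.38). The other libraries were at 211 TPM in 5C-Oct4GFP+, 1884 and 1622 TPM in the Oct4GFP- cells of mES and 5C medium, and 79.7 and 74.1 TPM in the primed libraries from 5C medium and R1 ESCs, so that the converted naive cells were the lowest of the 7. Reads of the retroviral and of the chromosomal copies could not be separated in these tables. The other 3 reprogramming factors were within 2-fold.

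Among 14 WNT targets compared, 2 were lower (14.3%, beside 4.16% of all genes), Myc and Cdx1, and none higher, with a median of 0.08. Cdx1, a caudal homeobox gene that WNT and retinoic acid activate, was at 148 TPM in mES-Oct4GFP+ and 69.3 TPM in the converted cells, 2.13-fold lower (1.91 to 2.38). It was at 0 to 0.73 TPM in the other 5 libraries, so that both were far above the rest, and its difference was under 2-fold with FPKM or median-ratio scaling. Lef1, a transcription factor of the pathway, was at 43.9 and 45.7 TPM. T (Brachyury), a mesoderm gene, was at 6.93 and 14.5 TPM, a ratio of 2.09 (1.4 to 3.20), with a difference of 0.97, and at 155 and 374 TPM in the primed libraries.

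The LIF and STAT3 list (17 genes) had a median of -0.22. Its 1 lower gene (5.88%, beside 4.16% of all genes) was the basic helix-loop-helix factor Msc. Socs3, the feedback inhibitor of LIF signalling, was at 39.6 and 65.7 TPM, a ratio of 1.66 (1.45 to 1.89). None of the 13 Nodal and activin genes passed 2-fold. Nodal was at 34.9 and 34.5 TPM, and its target Lefty1 at 24.5 and 17.0 TPM, against 564 and 715 TPM in the primed libraries.

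Of 9 BMP genes compared, 2 were higher (22.2%, beside 1.47% of all genes) and 1 lower (11.1%, beside 4.16%), with a median of -0.45. Id3, a BMP target that blocks differentiation factors, was at 17.9 TPM in mES-Oct4GFP+ and 41.1 TPM in the converted cells, a ratio of 2.30 (1.73 to 3.09), below the 84.4 to 248 TPM of the other 5. The BMP ligand Bmp4 was at 4.40 and 9.86 TPM, a ratio of 2.24 (1.38 to 3.79). Dusp9, the phosphatase through which BMP restrains ERK in embryonic stem cells, went the other way, from 33.7 TPM in mES-Oct4GFP+ to 9.75 in the converted cells, 3.45-fold lower (2.79 to 4.30).

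Germline genes were among the lower ones. Of 17 compared, 4 were at least 2-fold lower (23.5%, beside 4.16% of all genes compared) and none higher, with a median difference of -0.64 beside -0.13 for all genes. The summed level of the listed germline genes was 1416 TPM in mES-Oct4GFP+, 954 in the converted cells, 512 in 5C-Oct4GFP+ and 12.3 to 52.1 in the other 4. Both sums were above those of the other 5 libraries. Most of the gap between them came from Stra8, and the list also holds Zfp42, which was alike in both.

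Stra8, whose promoter holds the 2 AGGTCA half-sites shown above, was at 306 TPM in mES-Oct4GFP+ and 4.67 TPM in the converted naive cells. It was at 0.33 TPM in mES-Oct4GFP- and at 0 in both sorted fractions of 5C medium and in both primed libraries. It had 1254 reads in mES-Oct4GFP+ and 27 in the converted cells, and was 65.6-fold lower (44.9 to 99.95). The mES-Oct4GFP+ library stood alone at a high level, and the converted cells were the only other library above 1 TPM.

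Stag3, a cohesin subunit of meiotic chromosomes, was at 21.1 TPM in mES-Oct4GFP+ and 5.32 TPM in the converted cells, 3.97-fold lower (3.11 to 5.08). It was at 20.0 TPM in 5C-Oct4GFP+ and 1.72 to 4.67 TPM elsewhere. Brdt, a testis bromodomain protein, was at 12.4 and 3.65 TPM, 3.40-fold lower (2.43 to 4.84), with 0.34 to 1.71 TPM elsewhere. Sohlh2, a helix-loop-helix factor of early germ cells, was at 58.6 and 25.7 TPM, 2.28-fold lower (1.96 to 2.66), with 3.90 TPM in 5C-Oct4GFP+ and at most 0.11 in the other 4. Its difference of -1.16 was -0.97 after median-ratio scaling.

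Other germline genes differed less. Dazl, an RNA-binding protein that marks germ cells, was at 191 TPM in mES-Oct4GFP+ and 135 TPM in the converted cells, a ratio of 0.705 (0.661 to 0.753). It was at 9.10 TPM in 5C-Oct4GFP+ and at most 0.24 elsewhere. Tdrd12, of the pathway that silences transposons with small RNAs, was at 110 and 111 TPM. Tex19.1 was at 97.1 and 126 TPM, and 126 TPM also in 5C-Oct4GFP+.

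Further lower genes outside the list were named after their values were seen. Aurkc, the aurora kinase of meiosis and the early embryo, was at 255 TPM in mES-Oct4GFP+, 69.9 TPM in the converted cells and at most 1.4 TPM elsewhere. Dmrt1, a factor of testis and germ cell identity, was at 71.4 and 20.8 TPM, with 5.68 TPM in 5C-Oct4GFP+ and at most 1.72 TPM in the other 4. Both intervals of the ratio lay wholly beyond 2-fold, at 3.64-fold lower (3.18 to 4.19) and 3.44-fold lower (2.93 to 4.04). Csf3r, the receptor of granulocyte colony-stimulating factor, was at 47.4 and 19.4 TPM and at most 0.13 TPM elsewhere.

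**Figure D3:**
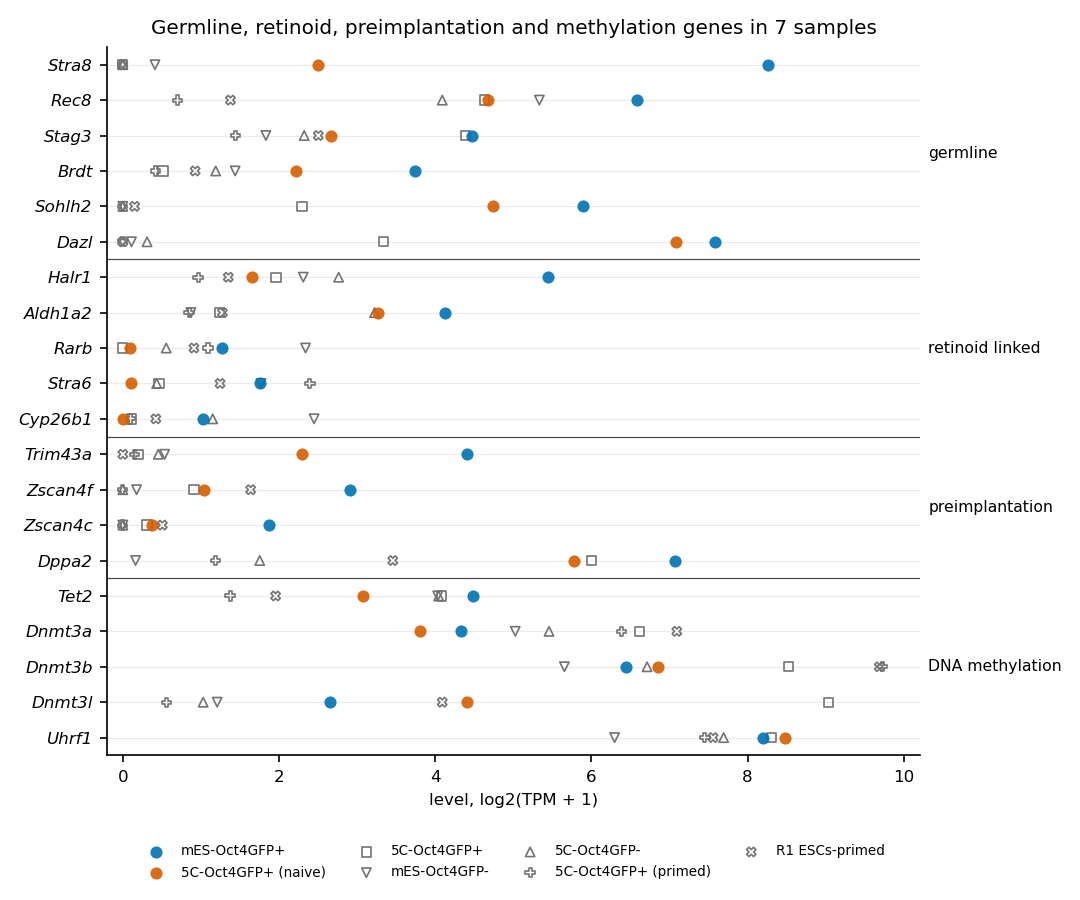
Level of germline, retinoid-linked, preimplantation and DNA methylation genes as log2(TPM + 1) on the x axis, 1 row per gene, with 1 point for each of the 7 libraries. Filled points are mES-Oct4GFP+ and 5C-Oct4GFP+ (naive), and open points are the other 5. Stra8 and Halr1 show mES-Oct4GFP+ to the right of all other libraries.

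A list of 23 genes of retinoic acid signalling was written after Stra8 had been seen, so that its counts describe these libraries and support nothing. Of the 12 compared, 4 were lower (33.3%, beside 4.16% of all genes) and none higher, with a median of -0.70. Among the 4 were Stra8, Halr1 and Rec8. Halr1, a long noncoding RNA, was at 42.3 TPM in mES-Oct4GFP+ and 2.15 TPM in the converted cells, 19.7-fold lower (7.28 to 75.02), with 0.95 to 5.79 TPM elsewhere. Rec8, the meiotic cohesin subunit, was at 94.99 and 24.7 TPM, 3.85-fold lower (3.28 to 4.55), with 0.62 to 39.3 TPM elsewhere.

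For these 3 genes mES-Oct4GFP+ was the highest of the 7 libraries. Aldh1a2, an enzyme that makes retinoic acid, was at 16.5 and 8.60 TPM, a ratio of 0.52 (0.39 to 0.69), with 0.80 to 8.34 TPM elsewhere. The receptor gene Rarb, itself a retinoic acid target, was at 1.42 TPM with 14 reads and 0.07 TPM with 1 read, a ratio of mES-Oct4GFP+ to converted cells of 20.3 (3.02 to 840). Stra6, which takes up retinol, was at 2.38 and 0.08 TPM. The degrading enzyme Cyp26a1 was at 0.88 and 0 TPM, but 132 and 110 TPM in the primed libraries. 

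The compared genes of the early embryo were also lower or alike. Of 17 preimplantation genes compared, 2 were lower (11.8%, beside 4.16% of all genes), Trim43a and Dppa2, and none higher, with a median of -0.05. Trim43a was at 20.2 TPM in mES-Oct4GFP+, 3.91 TPM in the converted cells and at most 0.45 TPM elsewhere, 5.18-fold lower (3.57 to 7.83). Of 17 measured genes of a 2-cell embryo list, 2 were compared, with 1 lower (50%, beside 4.16% of all genes) and none higher. The lower gene was Zscan4f, which marks a rare state of stem cells resembling the early cleavage embryo. It was at 6.54 and 1.05 TPM, 6.23-fold lower (3.14 to 14.3). The other compared gene had a difference of -0.11. Genes of this list under the minimum went both ways, with differences from -1.50 to 0.58. Zscan4c was at 2.66 and 0.29 TPM, under the minimum. The Trim43 and Zscan4 genes are families of near-identical copies, among which the counting can split reads.

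Among 20 genes of DNA methylation, Dnmt3l was higher (5%, beside 1.47% of all genes) and Tet2 lower (5%, beside 4.16%). The median was -0.18. Dnmt3l, the cofactor of de novo methylation, was at 5.31 TPM in mES-Oct4GFP+ and 20.2 TPM in the converted cells, a ratio of 3.81 (2.53 to 5.92), and both were far below the 525 TPM of 5C-Oct4GFP+. Of the de novo enzymes, Dnmt3a was at 19.2 and 12.9 TPM, below the 31.6 to 136 TPM of the other 5. Dnmt3b was at 85.8 and 115 TPM, within the 49.4 to 844 TPM of the other 5. Tet2, which oxidizes methylated cytosine, was at 21.4 and 7.44 TPM, 2.88-fold lower (2.51 to 3.30). Maintenance genes were alike, with Dnmt1 at 161 and 143 TPM and Uhrf1 at 292 and 357 TPM.

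Of 24 imprinted genes compared, 1 was higher (4.17%, beside 1.47% of all genes), Mest, and 2 lower (8.33%, beside 4.16%), Peg12 and Usp29. Meg3 and Rian, noncoding RNAs of the Dlk1-Dio3 locus whose loss marks poor iPSC clones, were at 318 and 302 TPM and at 409 and 377 TPM, against 497 to 1012 and 736 to 1204 TPM in the other 5. H19 was at 7.45 TPM in mES-Oct4GFP+ and 3.34 TPM in the converted cells, 2.23-fold lower (1.41 to 3.58) as a ratio but with a difference of -0.96. Xist, the RNA that silences an X chromosome, was at 1.45 and 1.36 TPM, and Ddx3y of the Y chromosome at 36.6 and 31.1 TPM.

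The other genes with the largest lower values came from several functions. Zfp781, a zinc finger gene, was at 24.2 TPM with 53 reads in mES-Oct4GFP+ and had no read in the other 6 libraries. It was at least 19.7-fold lower in the converted cells. Cphx3, a homeobox gene of the oocyte and early embryo family, was at 8.35 TPM and likewise without a read in the other 6, at least 16.2-fold lower. Pacsin1, a neuronal endocytosis protein, was at 17.4 and 0.36 TPM, 48.3-fold lower (22.7 to 123), with 0.72 to 6.77 TPM elsewhere. These 3 genes were highest in mES-Oct4GFP+ among the 7 libraries.

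Adgre5 (CD97), an adhesion receptor, was at 86.7 TPM in mES-Oct4GFP+ and 11.2 TPM in the converted cells, 7.71-fold lower (6.4 to 9.36), with 6.90 to 40.7 TPM elsewhere. Dpp4 (CD26), a peptidase, was at 54.7 and 9.44 TPM, 5.79-fold lower (4.95 to 6.80). Itga5, the fibronectin receptor subunit, was at 27.8 and 2.90 TPM, 9.57-fold lower (7.27 to 12.8), and the converted cells were below the 10.8 to 56.3 TPM of the other 5. Slc43a1, an amino acid transporter, was at 32.1 and 4.61 TPM.

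The rest of the 15 lower genes named by the rule were Col9a2, Caskin1, Hist2h2aa2, Ptpn22, Lsm7 and Rab3b. Caskin1, a synaptic scaffold protein, was at 13.6 and 1.0 TPM. Lsm7, of the complex that binds U6 RNA, was at 80.2 and 13.4 TPM, but also at 0 TPM in mES-Oct4GFP- and 63.0 TPM in R1 ESCs-primed. Mlxipl, a glucose-responsive factor named after its values were seen, was at 92.1 and 22.6 TPM, 4.07-fold lower (3.53 to 4.71), with 0.95 to 4.28 TPM elsewhere.

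A share of the higher genes lay close together in the genome. A median over 15 consecutive compared genes was moved along each chromosome, a step added after the values were seen. Of 10381 such windows, 104 had a median difference of at least 0.5, of which 93 were on chromosome 6 and 11 on chromosome 8. The median of all windows was -0.14, the highest was 1.34, on chromosome 6, and the lowest was -0.78, on chromosome 19, with 91 windows at -0.5 or below.

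The chromosome 6 segment ran from Necap1 to Mrps35, at chr6:122874474-147073991 on GRCm38, a length of 24.2 Mb. Its ends are the first and last genes at the centre of a window with a median of at least 0.5. Only 93 of the 107 compared genes in the segment centred such a window, so that the rise was not unbroken. Of its 107 compared genes, 45 were at least 2-fold higher (42.1%, beside 1.47% of all genes) and 2 lower, and 90 were above 0. The median difference was 0.90, with quartiles of 0.30 and 1.33, and the median ratio was 1.90. The other 388 compared genes of chromosome 6 had a median of -0.20, with 6 higher and 21 lower. The segment held 28.5% of all higher genes. Since it was found by these same differences, the counts describe it and are no test.

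**Figure D4:**
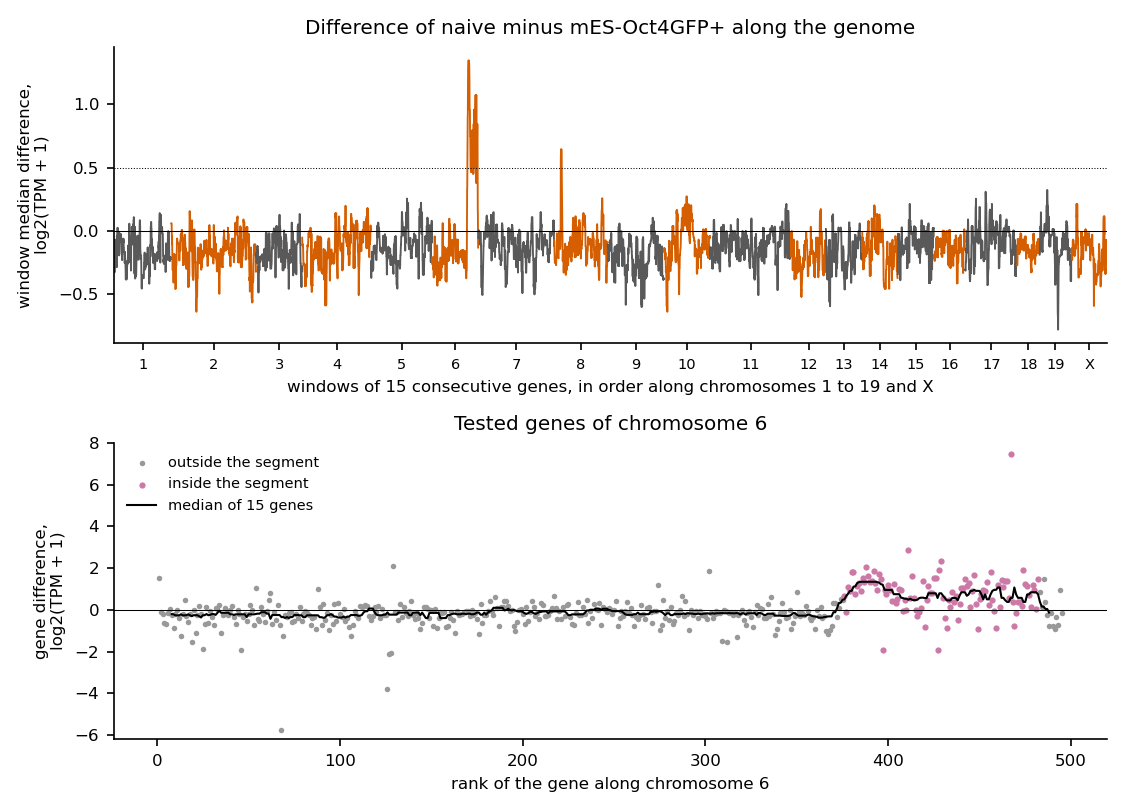
Top, median difference of log2(TPM + 1), naive minus mES-Oct4GFP+, in windows of 15 consecutive compared genes along chromosomes 1 to 19 and X, with the dotted line at 0.5. Bottom, the difference of each compared gene of chromosome 6 by its rank along the chromosome, with the median of 15 genes as a line. The windows exceed 0.5 on chromosomes 6 and 8, and the line rises at the start of the chromosome 6 segment and falls back near its end.

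The segment stood out in the converted cells rather than in mES-Oct4GFP+. Its compared genes summed to 30459 TPM in the converted cells and 17582 TPM in mES-Oct4GFP+, beside 17177 to 21443 TPM in the other 5. Against the median level of the other 5 libraries, its genes were 0.94 higher on the log2(TPM + 1) scale in the converted cells and 0.06 higher in mES-Oct4GFP+, and those of the rest of the chromosome were at -0.05 and 0.10. DNA was not measured in these samples.

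Genes of many functions in the segment shared the pattern. Mlf2 was at 367 TPM in mES-Oct4GFP+ and 1227 TPM in the converted cells, a ratio of 3.35 (3.18 to 3.53), with 286 to 437 TPM in the other 5. Fkbp4, a cochaperone of steroid receptors, was at 788 and 2296 TPM, a ratio of 2.91 (2.83 to 3.0), with 269 to 775 TPM elsewhere. Phb2, a mitochondrial prohibitin, was at 432 and 1051 TPM, a ratio of 2.43 (2.31 to 2.56). For each of these the converted cells were the highest of the 7 libraries.

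Cops7a, of the COP9 signalosome, was at 222 and 626 TPM, and Usp5, a deubiquitinase, at 156 and 398 TPM. Cdca3, a mitotic regulator, was at 257 and 670 TPM, with 65.3 to 213 TPM elsewhere. Strap was at 163 and 411 TPM, with 169 to 205 TPM elsewhere. For each of these 4 the converted cells were the highest of the 7 libraries.

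Not every gene of the segment was higher. Ndufa9, a subunit of complex I, was at 133 and 132 TPM and Aebp2, a Polycomb cofactor, at 166 and 162 TPM. The ratios were 0.997 (0.893 to 1.11) and 0.974 (0.907 to 1.05). Pianp was lower, from 18.5 TPM in mES-Oct4GFP+ to 4.06 TPM, within the 3.67 to 7.34 TPM of the other 5. Nanog lies shortly before the segment, with a difference of 0.08. Between Nanog and the segment, Slc2a3 had a difference of 0.50 and Foxj2 of 0.48. Klhl42, just after the segment, had a difference of 0.84, so that the edges are not sharp. The 10 compared genes before the segment had a median of -0.13 and the 10 after it -0.20.

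The segment also held 5 of the 15 higher genes named by the rule, Sox5it, Tnfrsf1a, Clec2g, Spsb2 and Clec2i. Sox5it is a transcript annotated in sense inside an intron of Sox5 at chr6:144670427-144672720. It was at 178 TPM with 952 reads in the converted cells and had no read in the other 6 libraries. The converted cells were at least 182-fold above mES-Oct4GFP+. Tnfrsf1a, the receptor of tumor necrosis factor, was at 5.19 TPM in mES-Oct4GFP+ and 44.4 TPM in the converted cells, a ratio of 8.56 (6.08 to 12.4). Its other levels were 16.9 to 85.6 TPM, so that mES-Oct4GFP+ was the lowest of the 7. The Clec2 genes are a lectin family of like copies, and their counts can share reads.

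The windows on chromosome 8 centred on 11 compared genes at chr8:22859535-25256588, a length of 2.40 Mb. All 11 had a difference above 0, 4 were at least 2-fold higher (36.4%, beside 1.47% of all genes) and none lower, with a median of 0.94. The other 563 compared genes of the chromosome had a median of -0.13. These 11 genes were also found by the same differences, so the counts are no test. Both libraries lay outside the range of the other 5 by their sums. The 11 genes summed to 214 TPM in mES-Oct4GFP+, 454 TPM in the converted cells and 339 to 431 TPM in the other 5. Against the median level of the other 5, the genes had a median deviation of -0.61 in mES-Oct4GFP+ and 0.25 in the converted cells. Sfrp1, a secreted WNT inhibitor, was at 6.85 and 48.9 TPM, a ratio of 7.14 (5.80 to 8.88), with 31.8 to 98.5 TPM elsewhere. Golga7 was at 52.5 and 112 TPM, with 87.0 to 109 TPM elsewhere. For Sfrp1 and Golga7 mES-Oct4GFP+ was the lowest of the 7 libraries. For Golga7, Gins4 and Ido2 the converted cells were the highest. Gins4, of the replication helicase, was at 59.3 and 114 TPM, with 46.4 to 80.0 TPM elsewhere. Ido2, an enzyme of tryptophan breakdown, was at 2.30 and 12.7 TPM, and at most 0.65 TPM elsewhere.

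Outside the 2 segments, the higher genes named by the rule were Tom1, Fthl17b, Fyb, Fthl17e, Lum, Evx1, Ptgs1 and Fgfbp1. Tom1, an endosomal sorting protein, was at 33.2 TPM in the converted cells and had no read in mES-Oct4GFP+, at least 66.1-fold higher. It was at 32.4 TPM in 5C-Oct4GFP+, 5.4 and 24.98 TPM in the Oct4GFP- cells of mES and 5C medium, and 23.5 and 2.82 TPM in the primed libraries from 5C medium and R1 ESCs, so that the 4 libraries from 5C medium were higher than the other 3. Fyb, an adaptor of blood cells, was at 0.92 and 22.6 TPM with 44.6 TPM in 5C-Oct4GFP+, a ratio of 24.6 (6.51 to 209) on 2 reads in mES-Oct4GFP+.

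Fthl17b and Fthl17e, ferritin-like genes of a family on the X chromosome, were at 11.8 and 8.0 TPM in the converted cells. Neither had a read in mES-Oct4GFP+, and they were at least 7.869-fold and 5.196-fold higher. Of the other 5 libraries 1 held a read of Fthl17b (0.34 TPM) and none of Fthl17e, and near-identical copies can share reads. Evx1, a posterior mesoderm gene, was at 0.63 and 6.08 TPM, a ratio of 9.65 (3.16 to 47.7), close to the 5.08 TPM of R1 ESCs-primed. Lum (lumican), on the fibroblast list, was at 0.45 and 6.98 TPM, a ratio of 15.5 (5.08 to 77.1). It had 3 reads in mES-Oct4GFP+ and 66 in the converted cells. The 7 collagen genes of the fibroblast list were under the minimum in both libraries and were not compared.

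Further higher genes, named after their values were seen, were Tuba4a, a tubulin, at 143 and 398 TPM, a ratio of 2.77 (2.53 to 3.04), Car2, a carbonic anhydrase, at 43.7 and 119 TPM, and Nefm, a neurofilament subunit, at 11.9 and 35.8 TPM. Tuba4a and Nefm were highest in the converted cells among the 7 libraries, whereas Car2 reached 362 and 502 TPM in the primed libraries.

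Glycolysis had genes on both sides. Of 26 compared, 4 were higher (15.4%, beside 1.47% of all genes), namely Tpi1, Eno1, Pfkp and Ldhb. Bnip3, Vegfa and Egln3 were the 3 lower ones (11.5%, beside 4.16%), and the median was 0.25. Tpi1 and Ldhb lie in the chromosome 6 segment, so that 2 higher genes remained outside it, where the median was 0.22. Tpi1 was at 170 and 524 TPM, with 468 to 1383 TPM elsewhere. Ldhb was at 376 and 791 TPM, with 129 to 406 TPM elsewhere. Eno1 (enolase) was at 283 and 792 TPM, a ratio of 2.80 (2.66 to 2.95), both below the 945 to 2151 TPM of the other 5 libraries. Its near-copy Eno1b was at 425 and 1087 TPM, so that reads of the pair cannot be cleanly divided. Pfkp, a phosphofructokinase, was at 70.0 and 160 TPM, a ratio of 2.29 (2.10 to 2.49), with 13.4 to 287 TPM elsewhere. The 3 lower genes are targets of hypoxia signalling, with Vegfa at 33.3 and 14.6 TPM, Bnip3 at 23.6 and 9.09 TPM and Egln3 at 5.10 and 2.04 TPM, and for each gene both libraries were below the other 5. The glucose transporter Slc2a1 was at 102 and 116 TPM, and Ldha at 217 and 254 TPM, against 2699 TPM in mES-Oct4GFP- and 3279 and 2770 TPM in the primed libraries.

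None of the 24 oxidative phosphorylation genes passed 2-fold, and their median was 0.15. The same held for the 24 cholesterol genes (median -0.22), among them Hmgcs1 at 194 and 165 TPM, the 21 fatty acid and lipid genes (-0.05), the 18 serine and folate genes (-0.07), the 16 ATF4 targets (0.08), the 24 DNA replication genes (-0.14), and the 26 Polycomb and Trithorax genes (-0.17).

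Among 21 redox genes, the metallothioneins Mt1 and Mt2, which bind zinc, were higher (9.52%, beside 1.47% of all genes) and Txnip lower (4.76%, beside 4.16%). Mt1 was at 567 TPM in mES-Oct4GFP+ and 1533 TPM in the converted cells, a ratio of 2.70 (2.51 to 2.91), and Mt2 at 895 and 1986 TPM, a ratio of 2.22 (2.09 to 2.36). Both were highest in the converted cells among the 7 libraries, with 5C-Oct4GFP+ next at 1390 and 1595 TPM. Txnip, the inhibitor of thioredoxin, was at 81.1 and 38.1 TPM, 2.13-fold lower (1.88 to 2.41).

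**Figure D5:**
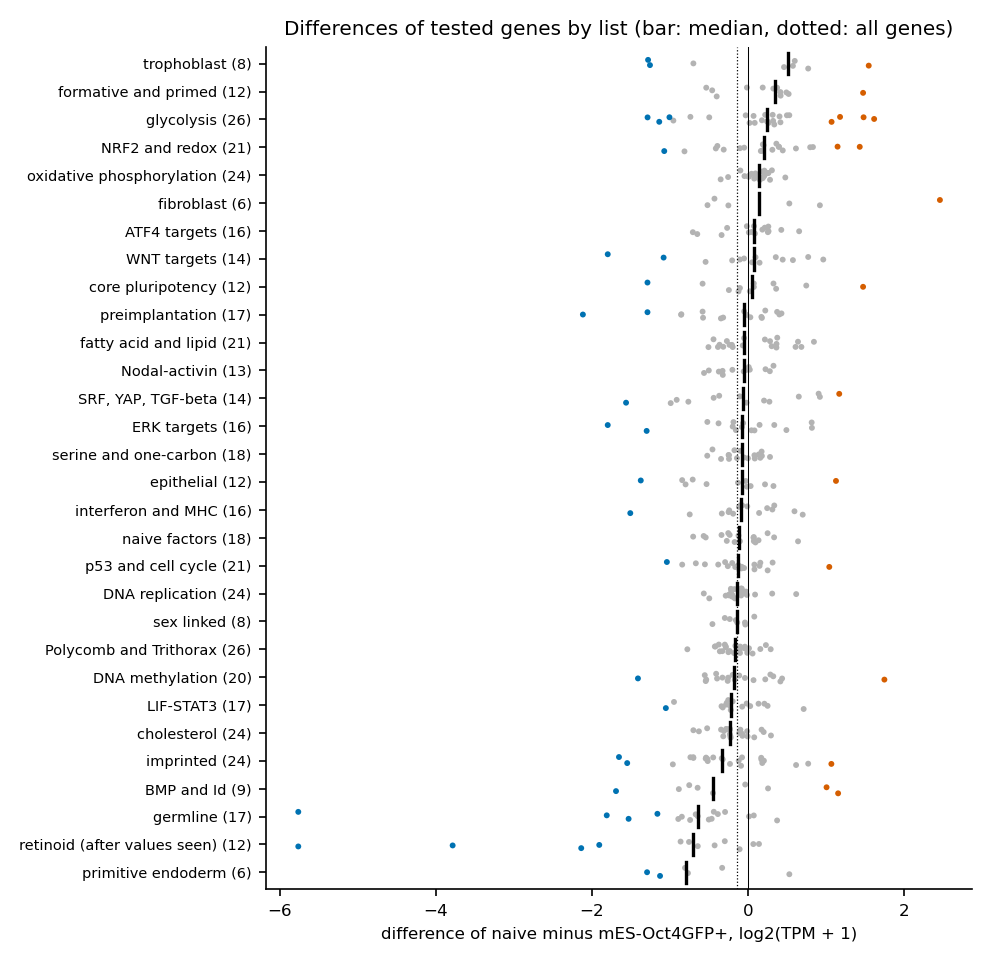
Difference of log2(TPM + 1), naive minus mES-Oct4GFP+, on the x axis for the compared genes of 30 lists, 1 point per gene, with the number of genes in brackets. The bar marks the median of a list, the dotted line that of all genes (-0.13), and coloured points are at least 2-fold higher or lower. The median of the germline genes, -0.64, lies to the left of the dotted line.

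Markers of other cell types were compared where they reached the minimum. Of 22 primitive endoderm genes 6 were compared, with a median of -0.79, and Dab2 and Lamb1 were lower (33.3%, beside 4.16% of all genes). The listed genes summed to 262 and 294 TPM against 323 to 2304 TPM elsewhere. Gata4, Gata6 and Sox17 were under the minimum in both. Of 18 trophoblast genes 8 were compared, with Ly6a higher (12.5%, beside 1.47% of all genes) and Rhox6 and Rhox9 lower (25%, beside 4.16%). Their listed genes summed to 85.7 and 101 TPM against 174 to 2301 TPM elsewhere. Of 23 epithelial genes 12 were compared, with 1 higher and 1 lower (8.33% each, beside 1.47% and 4.16% of all genes). Krt8 was higher at 3.82 and 9.54 TPM and Dsp lower at 8.50 and 2.67 TPM. Cdh1 (E-cadherin) was at 295 and 302 TPM, and Vim, a mesenchymal filament protein, at 335 and 637 TPM, a ratio of 1.90 (1.79 to 2.01).

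Of 18 neural genes 4 were compared, with Tubb3 higher (25%, beside 1.47% of all genes) at 91.7 and 185 TPM, the highest of the 7 libraries. The listed neural genes summed to 213 TPM in mES-Oct4GFP+ and 387 TPM in the converted cells, against 302 to 613 TPM elsewhere. Of 17 mesendoderm genes 4 were compared, with Evx1 higher (25%, beside 1.47% of all genes). None of the 4 immune and endothelial genes compared passed 2-fold, and the listed genes summed to 97.7 and 109 TPM, against 20.0 and 35.4 TPM in the primed libraries and 188 to 241 TPM in the other 3. The part of such cells in the differences was not tested.

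The remaining lists each had at most 1 gene on a side. Of 14 genes of the SRF, YAP and TGF-beta programme, Lmna was higher and Tpm2 lower (7.14% each, beside 1.47% and 4.16% of all genes). Of 16 interferon and antigen presentation genes, Tap1 was lower (6.25%), and of 21 genes of p53 and the cell cycle, Cdkn1b was higher and Rb1 lower (4.76% each). Cdkn1b (p27), which holds cells in G1, was at 20.5 and 43.3 TPM, a ratio of 2.11 (1.79 to 2.50), and lies in the chromosome 6 segment. None of the 8 genes of the sex chromosomes passed 2-fold.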

How the data were processed

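RNA was measured in 7 libraries, 1 per group, and 2 of them were compared here. The authors extracted total RNA with TRIzol, prepared TruSeq libraries, sequenced them on a MiSeq and quantified them with RSEM. The submitters' processing notes name Bowtie, RSEM and mm10 (GRCm38); versions are not given in the sources used here. The deposited expected counts are RSEM's estimates of reads per Ensembl gene without normalization. The authors' TPM divides each count by the effective length and gives every library the same total, and the deposited FPKM values are scaled to the mapped fragments. Counts summed to between 6108252 and 11496615 per library.

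Differences were taken as log2(TPM + 1) for genes whose TPM was 5 or more in either library, and a gene was called at 2-fold on that scale. Ratios of TPM have exact Clopper-Pearson 95% intervals from counts rounded to whole numbers. For a gene without reads in a library, the finite end of this interval was given as a bound. Names and coordinates came from GENCODE M21 by Ensembl identifier, which gave a symbol for 28756 of 29267 genes. Predicted models (Gm and Rik symbols) and pseudogenes were counted but not named, apart from Gm42418. A few genes are not reported here.

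The groups come from the GEO labels. The genes compared and the lists were chosen with earlier results of these data known. Named were the 15 largest differences in each direction with an interval wholly beyond 2-fold, up to 4 genes per list and direction past 2-fold, a set of state genes whatever their values, and genes named after their values were seen. Among the last are the genes in and beside the segments beyond those of the rule, and the retinoid genes. The others are Eno1b, Aurkc, Dmrt1, Csf3r, Mlxipl, Tuba4a, Car2, Nefm, Tdrd12, Tex19.1 and Col1a2. The naive sample has 20 passages in the labels, while 1 legend of the study gives a few days in naive medium.

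The alternatives were a pseudocount of 0.1, a minimum TPM of 1, no minimum, FPKM, median-ratio scaling, TMM scaling, an interval wholly beyond 2-fold and protein-coding genes only. The window scan, the retinoid list and the counts without the chromosome 6 segment were added after seeing the data. The scripts were tested on simulated data. The tools were R 4.3.3 with edgeR 4.0.16 (TMM factors only), and Python 3.11.15 with scipy 1.17.1, numpy 2.4.6, matplotlib 3.10.9 and pandas 2.3.3.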

Additional observations from a re-analysis of the deposited data

How the results depend on the processing

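No paired analysis was possible because each group has 1 library, and for the same reason no library could be left out. The 158 higher and 446 lower genes became 361 and 908 at a minimum TPM of 1 and the same 361 and 908 with no minimum, 263 and 275 with median-ratio scaling, and 81 and 196 where the interval had to lie wholly beyond 2-fold. The lower genes were also 206 with FPKM and 270 with TMM scaling, while the higher ones stayed within 1.5 times the reported count, at 122 and 209. The median difference of -0.13 became -0.16 at a minimum TPM of 1, -0.043 with FPKM, 0.059 with median-ratio scaling and 0.045 with TMM scaling. Without the chromosome 6 segment, added after seeing the data, 113 genes were higher and 444 lower. The 534 genes apart between the primed libraries became 1079 at a minimum TPM of 1 and 311 with FPKM. Of the lists with at least 5 genes compared, the retinoid list left out, 3 had a median at least 0.5 from that of all genes, and 0 did at a minimum TPM of 1. The number of chromosomes with a median at least 0.1 from that of all genes was 0, and 1 with FPKM and with TMM scaling. Of the genes named by the rule, 75 were past 2-fold, and 68 to 80 under the alternatives run for them, with no change of direction among those past 2-fold. The cause of these moves was not tested. Counting error limits genes with few reads, and the spread between cultures is not known for any gene.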
